A study of Homo sapiens with 12 samples.

Results

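DICER with glutamate in place of the arginine R821 was compared directly with DICER carrying alanine there, without a wild-type library in the contrast. The comparison rested on 4 of the 12 libraries of the series: 2 of HCT116 cells rescued with DICER R821E and 2 of HCT116 cells rescued with DICER R821A. The libraries were chosen by their labels, and all 1346 miRNA entries were read in them, together with 30 spike-in entries that gave a second scale. HCT116 is a human colorectal carcinoma line, and its small RNA was read by AQ-seq, a library protocol built to reduce the bias of adapter ligation. The other 8 libraries (rescue with wild-type DICER and with the mutants E5, A5 and ΔPAZ helix) entered the fit for the low-count filter, the scaling and the estimate of the spread between replicates, but not the contrast. The sources used here do not give which DICER the cells held before the rescue, how the rescue protein was expressed, whether a group is 1 clone or what E5 and A5 stand for. The labels do not tie the 2 libraries of a group to separate cultures, and p-values then rest on the scatter of these libraries alone, which may be technical.

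DICER is the RNase III enzyme that cuts the loop from a precursor hairpin and leaves a short duplex with a 5p and a 3p strand. An Argonaute protein keeps one strand of the duplex as the guide, and the other is mostly degraded, so the 5p and 3p counts of a hairpin describe both how much duplex was made and which strand was kept. The guide recognises its targets mainly through the seed, bases 2 to 8 of the mature strand. Arginine carries a positive charge, glutamate a negative one and alanine a small uncharged side chain. The comparison therefore asks what the charged replacement of R821 does to the miRNAs of a cell beyond the loss of the arginine itself.

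A few hairpins show the forms that the difference took, and their RefSeq sequences (GRCh38.p14) are printed with the mature strands in capitals. Lower here means lower relative to the spike-ins. In miR-29a (chr7:130876747-130876810, minus strand, in an intron of the lincRNA AC016831.6 and opposite LINC00513) the 3p strand alone was lower with glutamate. In miR-222 (chrX:45747015-45747124, minus strand, in an intron of MIR222HG) both strands were lower. In miR-96 (chr7:129774692-129774769, minus strand, outside annotated genes) the 5p strand was lower and the 3p strand was not. These hairpins were chosen after their values were seen.
miR-29a: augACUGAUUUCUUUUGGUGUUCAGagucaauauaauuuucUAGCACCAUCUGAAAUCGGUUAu
miR-222: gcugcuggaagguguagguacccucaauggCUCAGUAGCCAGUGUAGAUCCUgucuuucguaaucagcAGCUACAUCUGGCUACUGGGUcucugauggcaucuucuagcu
miR-96: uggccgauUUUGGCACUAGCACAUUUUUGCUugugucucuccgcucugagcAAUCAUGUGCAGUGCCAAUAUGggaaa

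The strands below carry the largest changes of the 5p to 3p ratio, with the seed in capitals. miR-221-3p lies at chrX:45746180-45746202 (minus strand, intron of MIR222HG), miR-200a at chr1:1167878-1167937 (plus strand, outside annotated genes), miR-454 at chr17:59137787-59137849 (minus strand, intron of SKA2) and miR-27a at chr19:13836447-13836508 (minus strand, exon of the non-coding AC020916.1). miR-26b, at chr2:218402657-218402712 (plus strand, intron of CTDSP1), moved the opposite way.
miR-221-3p: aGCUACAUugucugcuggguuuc
miR-200a-5p: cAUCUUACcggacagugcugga
miR-200a-3p: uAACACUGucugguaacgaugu
miR-454-5p: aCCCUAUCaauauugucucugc
miR-454-3p: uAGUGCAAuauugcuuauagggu
miR-27a-5p: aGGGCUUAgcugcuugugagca
miR-27a-3p: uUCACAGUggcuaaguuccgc
miR-26b-5p: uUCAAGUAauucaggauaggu
miR-26b-3p: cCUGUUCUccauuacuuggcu

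A further set holds strands with the largest falls and rises among called entries with at least 100 CPM in a group and no overlap between the groups. miR-25-3p (chr7:100093571-100093592, minus strand, intron of MCM7), miR-193a-3p (chr17:31560050-31560071, plus strand, outside annotated genes) and miR-877-5p (chr6:30584332-30584351, plus strand, intron of ABCF1) fell. miR-8072 (chr12:123364814-123364833, minus strand, exon of SBNO1), miR-1275 (chr6:34000018-34000034, minus strand, outside annotated genes) and miR-6516-3p (chr17:77089469-77089490, plus strand, exon of the small Cajal body RNA SCARNA16) rose. miR-3200-3p (chr22:30731610-30731631, plus strand, intron of OSBP2), miR-1915-3p (chr10:21496576-21496595, minus strand, intron of CASC10) and miR-1180-3p (chr17:19344513-19344534, minus strand, intron of B9D1) also fell, and miR-1246 (chr2:176601024-176601042, minus strand, outside annotated genes) rose.
miR-25-3p: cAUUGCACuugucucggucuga
miR-193a-3p: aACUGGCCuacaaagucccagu
miR-877-5p: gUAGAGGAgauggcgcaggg
miR-3200-3p: cACCUUGCgcuacucaggucug
miR-1915-3p: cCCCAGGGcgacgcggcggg
miR-1180-3p: uUUCCGGCucgcgugggugugu
miR-8072: gGCGGCGGggagguaggcag
miR-1275: gUGGGGGAgaggcuguc
miR-1246: aAUGGAUUuuuggagcagg
miR-6516-3p: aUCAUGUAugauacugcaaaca

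The R821E libraries held 229302 and 144067 miRNA counts, and the R821A libraries 255296 and 206580. R821E replicate 2 was the shallowest of the 4. By the total miRNA counts of each library, a count of 3 was worth 11.8 to 20.8 CPM (counts scaled to a common library size). All other CPM use the TMM scaling explained below, where a count was worth more in R821E. On it, 3 counts were 18.4 CPM in R821E replicate 1 (miR-1915-3p) and 26.0 in replicate 2 (miR-3200-3p). In R821A, 6 counts of miR-8072 were 21.1 CPM in replicate 1, and 4 counts were 18.4 in replicate 2. The intervals below cover counting error alone and leave out the spread between replicates. They treat reads as independent molecules, which reads amplified by PCR without molecular identifiers are not, so they may be too narrow. Of 14 entries of the epithelium and intestine, which HCT116 should express, 12 were detected, with miR-215 at 0, and their summed level was 1778 to 1841 CPM in R821E against 2856 to 2872 in R821A, without overlap. Among markers of other cell types, miR-124 of neurons and miR-133a and miR-208b of muscle were at 0, and miR-155 of leukocytes and miR-1, miR-133b, miR-206 and miR-208a of muscle were not analysed here. Beside the results below, 5 of 5 erythroid entries were detected, and their summed level was 380 to 451 CPM in R821E and 198 to 215 in R821A. The summed level of the 9 fibroblast and endothelial entries, 8 of them detected, was 742 to 807 and 1446 to 1521 CPM, and that of the 4 leukocyte entries, all detected, 156 to 208 and 401 to 482. The sums of the neuronal entries (7 of 10 detected) were 1802 to 1936 and 1494 to 1692 CPM, of the muscle entries (2 of 4) 43.4 to 61.3 and 13.8 to 17.6, and of the hepatocyte miR-122 8.68 to 12.3 and 3.52 to 4.61. The muscle and miR-122 values rest on few counts, and show no difference between the groups. A single count was 6.13 CPM in R821E replicate 1 and 8.68 in replicate 2, and miR-122 lay below 3 counts in every library. The part of such cells in the results was not tested.

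Relative to the spike-ins, the 3p strands were fewer with glutamate, while miR-21-5p, the most abundant miRNA of these cells, was at a like level. The 3p strands together gave 1.70 and 1.59 counts per spike-in count in R821E replicates 1 and 2, and 4.80 and 5.16 in R821A, or 1.65 ± 0.0741 against 4.98 ± 0.256 (SD, n = 2). The groups did not overlap, and their distance was far larger than the spread within either. The 5p strands other than miR-21-5p gave 3.76 and 3.51 against 5.06 and 5.75 counts per spike-in count, again without overlap. miR-21-5p, a repressor of the tumour suppressor PDCD4, gave 8.89 and 7.22 counts per spike-in count in R821E and 6.79 and 9.36 in R821A. Its groups overlapped, and so did those of the entries with no arm in the name, at 0.970 and 1.05 against 0.971 and 1.20. With 2 libraries against 2, a two-sided exact permutation test cannot go below p = 0.333, which is what the 3p sum gave (adjusted p = 0.487 over the 19 library quantities compared, Benjamini-Hochberg). In bulk RNA, fewer cells of a type and less RNA per cell cannot be told apart, and the sources used here do not say at which step the spike-ins were added. Of the spike-in sequences, 29 of 30 had at least 100 counts on average, and the ratio of their shares in R821E and R821A ran from 0.532 to 1.69 with a median of 0.992.

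**Figure D1:**
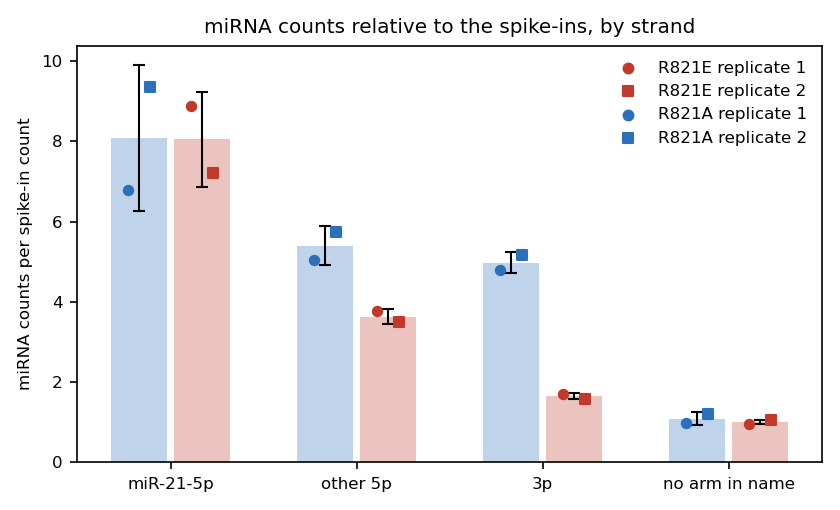
miRNA counts per spike-in count (vertical axis) for miR-21-5p, the other 5p strands, the 3p strands and entries with no arm in the name. Bars are means of 2 libraries, points are the libraries and error bars are SD. The 3p strands lie at 1.70 and 1.59 in R821E and at 4.80 and 5.16 in R821A, while the points of miR-21-5p overlap.

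A few abundant miRNAs made up much of the missing 3p strands. miR-222-3p and miR-221-3p, which repress the cell-cycle inhibitor CDKN1B, accounted for 35.5% and 9.71% of the difference of the 3p sum. miR-27a-3p gave 5.82%, miR-24-3p 5.34%, miR-29b-3p 4.44%, miR-31-3p 4.26% and miR-29a-3p 3.91%. Without miR-222-3p, miR-221-3p and miR-27a-3p the 3p strands still gave 1.16 and 1.09 counts per spike-in count in R821E against 2.52 and 2.99 in R821A, with no overlap. As a share of all miRNA counts the 3p strands made up 11.1% and 11.9% in R821E and 27.2% and 24.0% in R821A. Leaving out the miR-21 hairpin from every library, the shares were 23.5% and 23.2% against 43.4% and 41.2%, so the difference did not rest on that miRNA.

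Single entries are given on 2 scales. CPM are scaled by trimmed-mean (TMM) factors, which set each miRNA against the bulk of the others, so that values of a library need not add up to the nominal total. "Rose" and "fell" refer to this scale. Of 374 entries tested with edgeR's quasi-likelihood test at a Benjamini-Hochberg adjusted p under 0.05, 155 were called (41.4%), 82 of them higher (21.9%) and 73 lower (19.5%) with glutamate than with alanine. Relative to the spike-ins 184 entries were called (49.2%), 183 of them lower (48.9%) and 1 higher (0.267%). The median log2 fold change was -0.07 on the TMM scale, -0.18 with upper quartile factors (61 higher, 82 lower), -0.59 with total counts (19 higher, 132 lower) and -1.02 relative to the spike-ins. Leaving out R821E replicate 1 brought the 155 calls to 73, R821E replicate 2 to 103 and R821A replicate 1 to 94. Both R821E libraries lay above both R821A libraries in 36.9% of the tested entries and below them in 38.2%, and relative to the spike-ins in 3.21% and 65%.

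Of the 12 leading falls among entries with at least 100 CPM in a group, 9 were 3p strands, which made up 148 of the 374 entries tested. The 12 leading rises did not show the opposite. Of these, miR-3607-3p, miR-6516-3p, miR-26b-3p, miR-96-3p, miR-4485-3p and let-7a-3p were 3p strands, and miR-651-5p and miR-200a-5p were 5p strands. The largest with well-filled counts was miR-25-3p, made from the miR-106b~25 cluster in an intron of the replication gene MCM7. It was at 564 and 599 CPM in R821E and at 2308 and 2162 in R821A, a log2 fold change of -1.94 ± 0.16 (SE; edgeR, adjusted p = 4.15e-06). No library of one group came near those of the other. miR-92b-3p, which shares its seed, fell by 1.65 ± 0.29 on the log2 scale (edgeR, adjusted p = 9.40e-04), from 612 and 595 CPM in R821A to 178 and 208 in R821E. miR-331-3p fell from 725 and 751 CPM to 264 and 234 (-1.56), and miR-330-3p from 274 and 263 to 79.7 and 95.5 (-1.63). In each of these 4 entries the replicates of a group lay close together and the groups far apart.

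miR-193a-3p, a strand counted as a tumour suppressor in several cancers, fell from 193 and 175 CPM to 61.3 and 43.4 (-1.78). miR-185-5p fell from 208 and 212 CPM to 73.6 and 69.5 (-1.54), and miR-3615 from 271 and 189 to 67.4 and 86.8 (-1.60). miR-877-5p is a mirtron strand, whose hairpin is released by splicing rather than by DROSHA, and it fell from 193 and 198 CPM to 67.4 and 43.4 (-1.77). miR-1180-3p fell by 1.73 and miR-99b-3p by 1.70 on the log2 scale. The call on miR-1180-3p was lost without R821E replicate 2 (edgeR, adjusted p = 0.0935), and that on miR-99b-3p without R821E replicate 1 (0.294), R821A replicate 1 (0.121) or R821A replicate 2 (0.057). Low counts stood behind miR-3200-3p, with 1 and 3 counts in R821E against 40 and 15 in R821A (ratio 0.131, 95% exact counting interval 0.0345 to 0.355). They also stood behind miR-1915-3p, with 3 and 1 against 31 and 21 (ratio 0.139, interval 0.0364 to 0.377). The intervals cover counting error only, and miR-3200-3p was not called without R821E replicate 1 or R821A replicate 1 (edgeR, adjusted p = 0.111 and 0.0758).

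Relative to the spike-ins all 12 leading falls were called lower (miR-25-3p by -2.90, miR-185-5p by -2.49). The entries were chosen on the TMM scale from the same counts, and values relative to the spike-ins lay lower throughout. The difference between rises and falls on that scale is therefore no separate result. miR-8072 was at 104 CPM in both R821E libraries and at 21.1 and 18.4 in R821A, a log2 fold change of 2.35 ± 0.46 (edgeR, adjusted p = 0.00182). It rested on 17 and 12 counts against 6 and 4. It was the 1 entry called higher relative to the spike-ins (1.42 ± 0.46, adjusted p = 0.0212), and this call was lost without any of the 4 libraries in turn (adjusted p = 0.108 without R821E replicate 1, 0.0809 without R821E replicate 2, 0.115 without R821A replicate 1 and 0.091 without R821A replicate 2). None of the other 11 leading rises was called relative to the spike-ins, where their log2 fold changes ran from 0.38 for let-7a-3p to 0.57 for miR-3607-3p.

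miR-1275 rose from 436 and 438 CPM in R821A to 1312 and 1042 in R821E (1.43 ± 0.27, edgeR, adjusted p = 0.00134). miR-1246, whose sequence matches part of the U2 small nuclear RNA, rose from 232 and 244 to 717 and 538 (1.41). let-7a-3p rose from 492 and 747 to 1545 and 1624 (1.36), and miR-4485-3p, which matches mitochondrial ribosomal RNA, from 127 and 203 to 429 and 408 (1.36). Both R821E libraries were above both R821A libraries in each of these. miR-3607-3p (1.54), miR-6516-3p (1.52), miR-26b-3p (1.40), miR-651-5p (1.40), miR-96-3p (1.37), miR-200a-5p (1.37) and miR-573 (1.35) also rose. Their calls depended on single libraries. Without R821E replicate 1 the adjusted p (edgeR) was 0.269, 0.115, 0.0981, 0.101, 0.0841, 0.127 and 0.0674 in that order. Without R821E replicate 2 it was 0.0626 for miR-6516-3p, 0.112 for miR-26b-3p and 0.057 for miR-96-3p. Without R821A replicate 1 it was 0.23 for miR-3607-3p, 0.163 for miR-6516-3p, 0.199 for miR-26b-3p, 0.109 for miR-96-3p, 0.103 for miR-200a-5p and 0.0541 for miR-4485-3p. Without R821A replicate 2 it was 0.0582 for miR-651-5p, 0.0511 for miR-200a-5p and 0.0511 for miR-573.

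**Figure D2:**
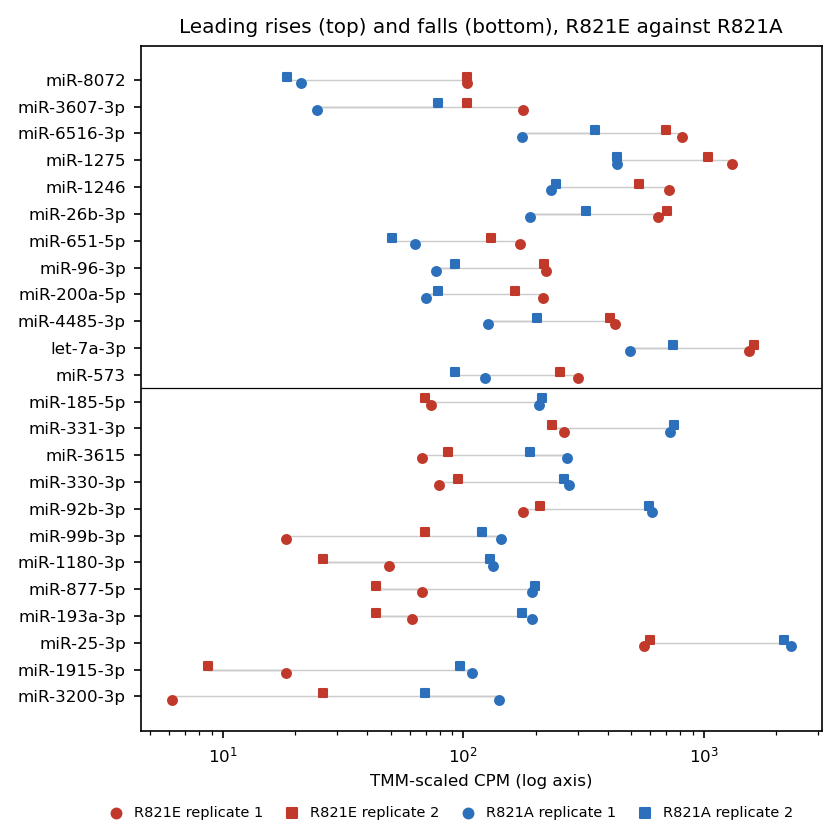
TMM-scaled CPM (log axis) of the 12 leading rises and the 12 leading falls, with 1 point for each R821E and R821A library. miR-25-3p lies at 564 and 599 CPM in R821E and at 2308 and 2162 in R821A, and miR-8072 at 104 against 21.1 and 18.4.

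Among the 10 most abundant entries of R821A, the called 5p strands rose and the called 3p strands fell. miR-21-5p rose by 0.97 ± 0.16 (edgeR, adjusted p = 6.92e-04) relative to the others and had a log2 fold change of -0.00 ± 0.20 relative to the spike-ins (edgeR, adjusted p = 0.989). miR-100-5p (0.82), miR-10a-5p (0.82), miR-4521 (1.07) and miR-16-5p (0.48) rose too, and relative to the spike-ins miR-16-5p alone of these was called, as lower (-0.49). With total counts miR-100-5p (0.30, edgeR, adjusted p = 0.122) and miR-10a-5p (0.29, 0.181) were not called, and miR-16-5p (-0.04) turned sign. The call on miR-16-5p was lost with upper quartile factors (edgeR, adjusted p = 0.0831), without the filter on low counts (0.307) and without R821E replicate 1 (0.0538), and relative to the spike-ins without R821E replicate 2 (0.0892) or R821A replicate 2 (0.0793). miR-222-3p was at 36209 and 34773 CPM in R821E against 82232 and 67519 in R821A (-1.08 ± 0.14, edgeR, adjusted p = 1.49e-04). miR-221-3p (-1.23) and miR-27a-3p (-1.39) fell with it, and the groups did not overlap in any of these 3. miR-31-5p (-0.08) and miR-31-3p (-0.25) were not called on the TMM scale but were lower relative to the spike-ins (-1.04 and -1.22, edgeR, adjusted p = 8.69e-04 and 2.75e-05).

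By strand, 50 of 174 tested 5p entries rose and 22 fell, 16 of 148 3p entries rose and 45 fell, and 16 of 52 entries with no arm in the name rose and 6 fell. Relative to the spike-ins 76 5p entries, 94 3p entries and 13 entries without an arm were called lower. The 5p median was 0.22 on the TMM scale and -0.72 relative to the spike-ins, and it turned negative with total counts as well (-0.31), whereas the 3p median was negative under each scaling tried (-0.58 on the TMM scale and -1.52 relative to the spike-ins).

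To follow the strands within a hairpin, the log2 ratio of 5p to 3p counts was compared for the 69 hairpins with at least 20 counts on average in both arms. Scaling cancels in this ratio. With glutamate 23 hairpins were shifted toward 5p (33.3%) and 4 toward 3p (5.8%) by limma at a Benjamini-Hochberg adjusted p under 0.05, and 47 of 69 shifts were positive, with a median of 0.42. Among the 8 hairpins with the largest shifts toward 5p, miR-221 had log2 ratios of 1.06 and 1.08 in R821E and of -2.35 and -1.11 in R821A, a shift of 2.80 ± 0.68 (limma, adjusted p = 0.00983). miR-200a, of the epithelial miR-200 family that represses ZEB1 and ZEB2, went from -3.36 and -3.20 to -0.70 and -0.44 (2.71). miR-27a went from -4.08 and -4.02 to -1.88 and -2.02 (2.10 ± 0.23, limma, adjusted p = 2.65e-05). In all 3 the R821E libraries lay above both R821A libraries. miR-454 (2.23), miR-331 (2.09), miR-22 (2.05), miR-148a (1.96) and miR-29c (1.82) followed, and no groups overlapped among these either, where 52.2% of the 69 hairpins had both R821E libraries higher. The call on miR-221 was lost without R821E replicate 2 (limma, adjusted p = 0.0576), and that on miR-22 without R821A replicate 1 (0.0927).

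Relative to the spike-ins, the shift toward 5p lay in the 3p strand of each of these hairpins. In all 23 hairpins called toward 5p the 3p strand was lower, with log2 fold changes from -2.58 to -1.24 and a median of -1.86, and in 0 of 23 was the 5p strand called by edgeR in either direction, with values from -0.76 to 0.48 and a median of -0.08. The ratio and the strands come from the same counts, so a shift implies that some strand differs. On this scale 183 of 374 entries were lower and 1 was higher, with 63.5% of 3p and 43.7% of 5p entries lower. A shift toward 5p was therefore likely to appear as a lower 3p strand. Over all 69 hairpins the medians were -0.63 for the 5p and -1.49 for the 3p strands. A 5p strand that misses the threshold is not shown to be equal: for miR-221-5p the log2 fold change was 0.48 with an SE of 0.65. The count of 23 was 21 to 23 under the other spike-in scalings, the replicate block, the fit of the 4 libraries and the fits without 1 library, alternatives chosen after the data were seen.

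The counts of miR-29a show the pattern, although its 2 R821A libraries differed from each other. Its 5p strand gave 142 and 122 counts per 1000 spike-in counts in R821E and 113 and 141 in R821A, with overlap. Its 3p strand, a repressor of collagens and of the DNMT3 DNA methyltransferases, gave 59.3 and 53.4 against 159 and 214, without overlap (-1.73 ± 0.17, edgeR, adjusted p = 4.26e-06). On the TMM scale the log2 fold changes were 1.03 for miR-29a-5p and -0.75 for miR-29a-3p. The log2 ratio of the strands moved from -0.50 and -0.60 to 1.26 and 1.19, so that the hairpin changed its dominant strand. Such a change of the dominant strand, alike in both libraries of each group, was seen in 7 hairpins: miR-221, miR-331, miR-29c, miR-29a, miR-455, miR-130b and miR-423. All 7 went from 3p to 5p.

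**Figure D3:**
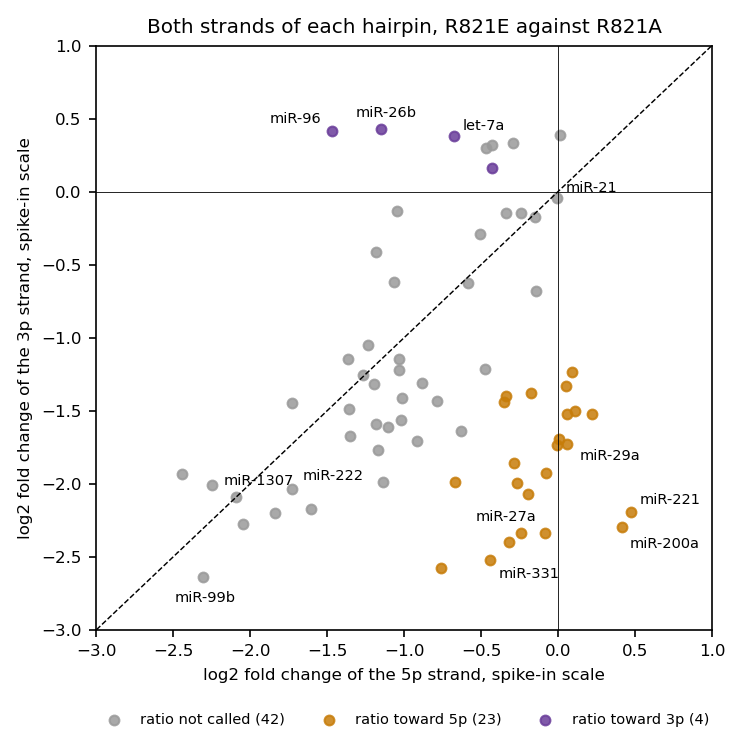
Log2 fold changes relative to the spike-ins of the 5p strand (horizontal axis) and the 3p strand (vertical axis) of 69 hairpins, coloured by the call on their ratio, with the dashed line marking equal change. The 23 hairpins called toward 5p lie between -0.76 and 0.48 for the 5p and between -2.58 and -1.24 for the 3p strand.

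The remaining hairpins showed other combinations. In 24 of 69 both strands were lower relative to the spike-ins and the ratio was not called, among them miR-222, miR-31, miR-99b, miR-324 and miR-1307. miR-222-5p gave 29.3 and 30.3 counts per 1000 spike-in counts in R821E against 95.3 and 102 in R821A, and miR-222-3p gave 395 and 372 against 1613 and 1523. Both strands thus lay well below R821A in both libraries, and the ratio shift of 0.31 ± 0.17 was not called (limma, adjusted p = 0.160). miR-221, its neighbour at the same locus with the same 3p seed, had a log2 fold change of its total of -0.00 ± 0.11 on the TMM scale and was not called by edgeR, while the total of miR-222 fell by 1.06 ± 0.13. Both totals were lower relative to the spike-ins, at -0.97 ± 0.15 for miR-221 (edgeR, adjusted p = 9.40e-06) and -2.01 for miR-222. In 27 hairpins the 3p strand alone was lower, the 23 above and miR-629, miR-101, miR-10a and miR-148b. In 9 the 5p strand alone was lower and in 9 neither strand was called, among them miR-21, miR-183, miR-30d, miR-93, miR-181a and miR-20a.

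The 4 hairpins shifted toward 3p were miR-96 (-1.87 ± 0.51, limma, adjusted p = 0.00983), miR-26b (-1.63), let-7a (-1.08) and miR-181a (-0.59). miR-96-5p, a strand of the miR-18396182 cluster, gave 11.0 and 12.7 counts per 1000 spike-in counts in R821E against 34.2 and 31.3 in R821A. miR-96-3p gave 2.40 and 2.32 against 1.52 and 2.08. The 5p strand was therefore lower without overlap (-1.47), while the 3p strand was not called (0.42). In 3 of these 4 hairpins the 5p strand was lower relative to the spike-ins, and in none of the 4 was the 3p strand called by edgeR. let-7a kept its call without any 1 library. The call on miR-96 was lost without R821A replicate 1 (limma, adjusted p = 0.0921), that on miR-26b without R821E replicate 2 (0.0703) or R821A replicate 1 (0.134), and that on miR-181a without R821E replicate 1 (0.199), R821A replicate 1 (0.134) or R821A replicate 2 (0.061).

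The direction went with the strand that led a hairpin in R821A. Among the 24 hairpins in which the 3p strand led, 13 shifted toward 5p and 0 toward 3p. Among the 45 in which the 5p strand led, the numbers were 10 and 4. Since the R821A counts both sort the hairpins and form the shift, some of this contrast arises by construction.

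**Figure D4:**
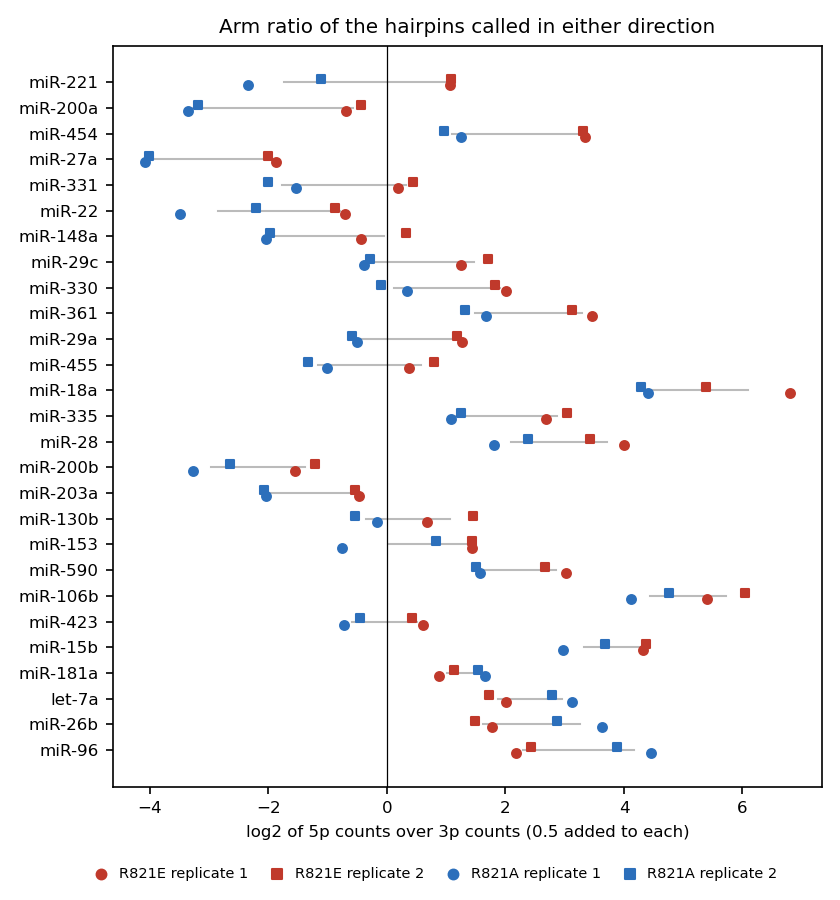
Log2 of 5p over 3p counts (horizontal axis) for the 27 hairpins called in either direction, with 1 point for each library and a grey line between the group means. miR-221 lies at 1.06 and 1.08 in R821E and at -2.35 and -1.11 in R821A, and miR-96 at 2.17 and 2.43 against 4.46 and 3.88.

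The sum of both strands is carried by the more abundant one, so it is not free of the balance of the strands. A lower total can come from 1 strand alone. Of the 27 hairpins with the 3p strand alone lower relative to the spike-ins, 20 had a lower total on that scale. Relative to the other miRNAs, 39 of 69 totals were called (56.5%), 21 higher (30.4%) and 18 lower (26.1%), and relative to the spike-ins 53 were lower (76.8%) and 0 higher. Of the 23 hairpins shifted toward 5p, 17 had a lower total on the spike-in scale. The leading falls were miR-99b (-1.38 ± 0.23), miR-33b (-1.30), miR-324 (-1.25), miR-483 (-1.17) and miR-27a (-1.14), all called by edgeR. In miR-27a the log2 fold change was -1.39 for the 3p strand and 0.72 for the 5p strand. miR-99b was at 490 and 669 CPM in R821E against 1681 and 1300 in R821A. miR-33b, a regulator of cholesterol genes made from an intron of SREBF1, was at 423 and 486 against 1326 and 899. The R821E libraries were the lower ones in each case. The call on miR-324 was lost without R821E replicate 1 (edgeR, adjusted p = 0.0615), and that on miR-483, with as few as 5 counts of a strand in a library, without R821E replicate 1 (0.227), R821A replicate 1 (0.0547) or R821A replicate 2 (0.0962). The leading rises were miR-18a (1.15), miR-4485 (1.11), miR-21 (0.97), miR-28 (0.89) and miR-590 (0.82). Relative to the spike-ins these 5 had values between -0.15 and 0.17, and none was called.

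miRNAs with the same seed recognise like targets, so counts were summed over entries that share bases 2 to 8. Of 266 such families 107 were called by edgeR (40.2%), 56 higher (21.1%) and 51 lower (19.2%), and 50 families had more than 1 member. Leaving out R821E replicate 1 or R821A replicate 1 brought the 107 calls to 70. Among the 50, families made of 3p strands gave 3 higher and 8 lower of 18, and families made of 5p strands 8 higher and 2 lower of 19. The family with the seed AUUGCAC (miR-92a-3p, miR-25-3p, miR-32-5p and miR-92b-3p) was at 4310 and 4107 CPM in R821E and at 10314 and 9077 in R821A (-1.20 ± 0.12, edgeR, adjusted p = 2.63e-05). The miR-221-3p and miR-222-3p family (GCUACAU) fell by 1.11 on the log2 scale, the miR-27-3p family (UCACAGU) by 1.28, miR-200a-3p with miR-141-3p (AACACUG) by 1.30, and miR-23-3p (UCACAUU) by 0.64. These 5 sums were lower relative to the spike-ins as well, and kept their call without any 1 library. The miR-103a-3p and miR-107 family (GCAGCAU), repressors of DICER1 itself, fell by 1.25, and this call was lost without R821E replicate 2 (edgeR, adjusted p = 0.0913) or R821A replicate 1 (0.0836). The miR-29-3p family (AGCACCA) fell by 0.75, with the call lost without R821E replicate 2 (0.0987) or R821A replicate 2 (0.0612).

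Families that rose were mostly 5p strands, and none of these sums was called higher relative to the spike-ins. The miR-15/16 family (AGCAGCA), repressors of BCL2 and of cyclins, was at 32549 and 31691 CPM in R821E against 21500 and 21071 in R821A (0.59 ± 0.11, edgeR, adjusted p = 0.00129), and it was lower relative to the spike-ins (-0.37 ± 0.13, adjusted p = 0.0256). The miR-99/100 family (ACCCGUA) rose by 0.73 and had -0.23 relative to the spike-ins, where it was not called. Its members parted: miR-100-5p rose by 0.82, whereas miR-99b-5p went from 1537 and 1180 CPM to 472 and 599 (-1.35). The miR-18-5p family (AAGGUGC) rose by 1.19 and the let-7-3p family (UAUACAA) by 1.30. miR-200b-5p with miR-200a-5p (AUCUUAC) rose by 0.93, the counterpart strands of the falling AACACUG family, with the call lost without R821E replicate 2 (edgeR, adjusted p = 0.0644) or R821A replicate 1 (0.136).

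Among called families, the 5 largest changes each way were in families of 1 entry, most with few counts. miR-4787-3p had 1 and 0 counts in R821E against 28 and 12 in R821A (ratio 0.045, 95% exact counting interval 0.00111 to 0.266). miR-4707-5p had 2 and 2 against 16 and 11 (ratio 0.267, interval 0.0678 to 0.766), with the call lost without any 1 of the 4 libraries (edgeR, adjusted p = 0.101 to 0.259). With miR-3200-3p, miR-1915-3p and miR-877-5p, these were lower relative to the spike-ins too. miR-1257 had 11 and 7 counts in R821E against 4 and 2 (ratio 5.40, interval 2.05 to 16.6), with the call lost without R821E replicate 1 (edgeR, adjusted p = 0.0768) or R821A replicate 2 (0.0612). miR-3662 rose by 1.96, lost without R821A replicate 1 (0.08), and miR-4449 by 1.47, lost without R821E replicate 1 (0.0771) or R821A replicate 1 (0.125). miR-8072 and miR-6516-3p made up the rest, and relative to the spike-ins miR-8072 alone of these 5 was called.

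In the miR-17~92 and paralogous clusters, which promote proliferation, 7 of 20 tested entries rose and 3 fell, beside 21.9% and 19.5% of all entries. On the spike-in scale 8 of 20 were lower, beside 48.9% of all. The 3 that fell were 3p strands (miR-25-3p, miR-92a-3p and miR-19b-3p), but miR-20a-3p (1.29) and miR-93-3p (0.83) were among the 7 that rose, and miR-17-5p (-0.11), miR-106a-5p (-0.42) and miR-92a-1-5p (-0.46) were not called. miR-20a-3p, miR-93-3p, miR-106a-5p and miR-92a-1-5p were named after their values were seen, and a difference between the strands of these clusters was not tested. The AAAGUGC family of miR-17-5p, miR-20a-5p, miR-93-5p, miR-106a-5p and miR-106b-5p was at 17289 and 15715 CPM in R821E against 11847 and 12635 in R821A (0.43 ± 0.12), with the call lost without R821E replicate 1 (edgeR, adjusted p = 0.0966) or R821A replicate 1 (0.113). miR-18a-5p rose by 1.19. The miR-19-3p family (GUGCAAA) was at 2311 and 2249 against 3532 and 3665 CPM (-0.66 ± 0.21), and its call was lost without any 1 of the 4 libraries (adjusted p = 0.0861 to 0.163). miR-92a-3p fell by 1.44 and gave 23.9 and 23.2 counts per 1000 spike-in counts in R821E against 124 and 125 in R821A. The 3p strands miR-19 and miR-92a thus lay below R821A in both libraries. Of the 5p strands, miR-20a-5p, miR-93-5p, miR-106b-5p and miR-18a-5p were not called relative to the spike-ins (-0.43, -0.34, -0.17 and 0.22) and miR-17-5p was (-1.07).

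Further families are given as counts of tested members, read against 21.9% higher and 19.5% lower over all entries, and 48.9% lower relative to the spike-ins. In the let-7 family 4 of 19 rose and 0 fell, and 8 were lower relative to the spike-ins. Named after their values were seen, the 4 were let-7b-5p (0.50), let-7a-3p (1.36), let-7f-2-3p (1.12) and let-7b-3p (1.27). Reads shared by near-identical members could have been divided in more than one way, so single let-7 members are uncertain. In the miR-15/16 list 6 of 11 rose and 0 fell, in the miR-181 family 4 of 7 and 0, in the miR-29 family 3 of 7 and 2, and in the miR-10, miR-99 and miR-100 family 3 of 7 and 2. The medians of these 4 lists were 0.85, 0.61, 0.09 and 0.68 on the TMM scale and flipped to -0.12, -0.34, -0.86 and -0.27 relative to the spike-ins, and the miR-29 median was also below 0 with upper quartile factors (-0.02) and total counts (-0.44). In the miR-23, miR-27 and miR-24 clusters 1 of 11 rose and 5 fell, in the miR-200 family 1 of 6 and 3, among the strands of miR-222 and miR-221 0 of 4 and 3, and in miR-103 and miR-107 0 of 3 and 2. The medians of these 4 lists were below 0 under each scaling tried.

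The miR-30 family had 2 of 10 higher and 2 lower, the miR-183, miR-96 and miR-182 cluster 2 of 6 and 1, the miR-130, miR-301 and miR-454 family 1 of 9 and 2, and the miR-148 and miR-152 family 1 of 4 and 2. In the miR-26 family 1 of 5 rose, in the p53-induced miR-34 family 1 of 5 fell, and in the miR-125 family 0 of 4 were called by edgeR. In the miR-25 and miR-92 seed list 0 of 8 rose and 3 fell. miR-194-5p, of intestinal epithelium, fell by 1.13 from 102 and 87.6 CPM to 42.9 and 43.4, with the call lost without each library in turn (edgeR, adjusted p = 0.0794 to 0.173), and miR-192-5p was not called (0.17).

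Some entries are made by a path other than the usual one. miR-451a, which AGO2 matures without DICER, gave 2.67 and 3.34 counts per 1000 spike-in counts in R821E and 2.42 and 3.02 in R821A, with overlapping groups (0.15 ± 0.27 relative to the spike-ins, edgeR, adjusted p = 0.699). Relative to the other miRNAs it rose by 1.11, a call lost without R821A replicate 1 (adjusted p = 0.0563). Of 12 entries that overlap snoRNA, tRNA, snRNA or rRNA genes, 6 rose and 0 fell, beside 21.9% and 19.5% of all entries. On the spike-in scale 0 were called by edgeR, beside 48.9% lower over all. Their median was 1.05 among the other miRNAs and 0.10 against the spike-ins. miR-1260b gave 208 and 230 counts per 1000 spike-in counts in R821E against 205 and 206, and was not called on that scale (0.09). miR-320a and miR-484 reach DICER without a DROSHA cut, because transcription starts at the hairpin, and both fell. miR-320a went from 4204 and 5665 CPM in R821A to 3010 and 2448 in R821E (-0.85), and miR-484 from 802 and 747 to 374 and 399. miR-320a lost its call without R821E replicate 2 (edgeR, adjusted p = 0.121) or R821A replicate 2 (0.0903), and miR-484 without R821E replicate 1 (0.0502). miR-877-3p, the partner strand of the mirtron, had 4 and 0 counts in R821E against 23 and 6 in R821A (ratio 0.248, 95% exact counting interval 0.0635 to 0.707) and was not called on the TMM scale (edgeR, adjusted p = 0.0809, or 0.0433 without R821A replicate 2).

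Sequence features that did not enter the choice of libraries were read for the 331 of 374 tested entries with a RefSeq sequence. Of 47 3p strands that begin with U, the base Argonaute prefers at the guide's 5′ end, 1 rose and 20 fell (median -0.75), and of 12 that begin with G 0 and 5 (-0.74). The counts were 5 and 9 of 33 for A (-0.49) and 7 and 9 of 44 for C (-0.31). Over all 136 3p strands 13 rose and 43 fell. Of 74 5p strands that begin with U 19 rose and 7 fell (median 0.24), of 13 with G 2 and 7 (-0.77), of 39 with A 12 and 2 (0.10) and of 25 with C 5 and 4 (0.09). Over all 151 5p strands 38 rose and 20 fell. These are TMM values, and with the spike-ins as the scale each of the 8 medians was below 0, from -1.73 to -0.72. Among hairpins, 11 of 20 whose 3p strand begins with U were shifted toward 5p, against 4 of 8 for G, 4 of 16 for A and 4 of 20 for C. The medians of the shift were 1.35, 1.16, 0.26 and 0.18 in that order. Over all 64 such hairpins 23 were shifted toward 5p, with a median of 0.49. These are descriptions of strands that share libraries and families, with no test.

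Strands rich in G and C stood lower among both 5p and 3p entries. The rank correlation (Spearman) of GC content with the log2 fold change on the TMM scale was -0.39 over 151 5p entries, -0.34 over 136 3p entries and 0.04 over 44 entries with no arm in the name. In the lowest, middle and highest of 3 groups of GC content, the median log2 fold change was 0.44, 0.03 and -0.19 for 5p strands and -0.26, -0.60 and -0.76 for 3p strands. The mean GC content of these groups was 35.8%, 46.7% and 61.0% for 5p and 36.0%, 49.6% and 63.9% for 3p strands. Across 58 hairpins with both sequences, GC content had a rank correlation of -0.43 with the total relative to the spike-ins and of -0.08 with the shift of the ratio. The points share 4 libraries and their depth, and are not independent replicates.

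**Figure D5:**
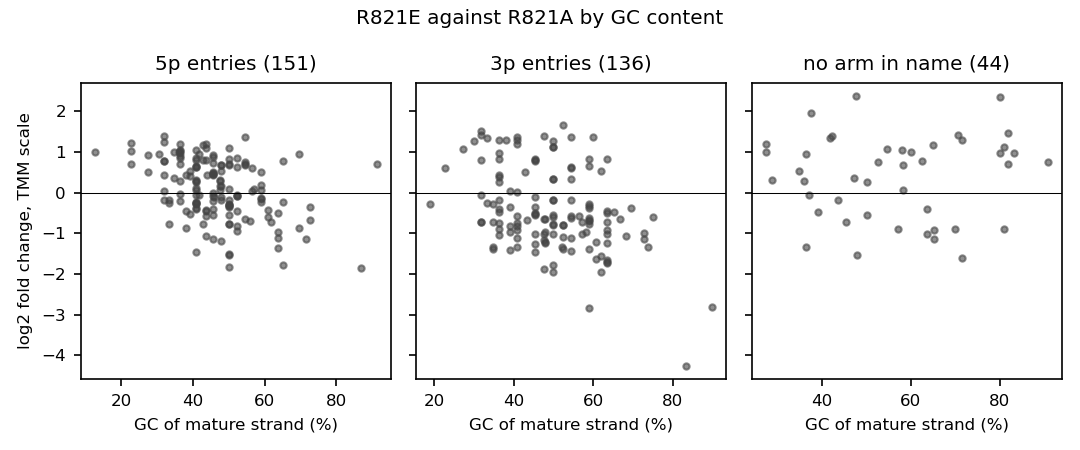
Log2 fold change on the TMM scale (vertical axis) against the GC content of the mature strand (horizontal axis, percent), with 1 point for each tested entry, for 5p, 3p and unnamed arms. The rank correlations are -0.39, -0.34 and 0.04, and at like GC content the 3p points lie lower than the 5p points, with medians of -0.26, -0.60 and -0.76 against 0.44, 0.03 and -0.19.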

How the data were processed

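AQ-seq small-RNA libraries of HCT116 cells were analysed from the deposited tables, which hold raw counts per miRNA or spike-in entry, whole numbers that the authors did not normalise. The tools listed in the submitters' processing notes are bedtools, BWA and cutadapt, beside the genome builds mm10 and hg38. The sources used here give neither tool versions nor what each build served for, nor how reads matching several miRNAs were counted (miR-500a-5p and miR-500b-5p had identical counts). On the TMM scale, library sizes and tests of miRNAs used no spike-in entry. Counts were tested with edgeR 4.0.16 in R 4.3.3 (robust quasi-likelihood, TMM factors, filterByExpr by group) over all 12 libraries with 6 residual degrees of freedom. The filter left 374 of 1346 entries with 99.6% of miRNA counts. The same test was run with the spike-in sum as library size, on hairpin totals and on seed sums. Arm ratios, log2 of (5p + 0.5)/(3p + 0.5), were tested with limma 3.58.1 (trend, robust). The threshold was an adjusted p of 0.05 (Benjamini-Hochberg). Single library quantities were compared by exact permutation. Alternatives were DESeq2 1.42.0, other scalings, filters and pseudocounts, the 4 libraries alone, a replicate block and each library left out.

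The 2 libraries of a group differed beyond sampling noise (chi-square per degree of freedom 4.60 in R821E and 9.87 in R821A), so none was a copy. Named were the 12 largest rises and falls among called entries with at least 100 CPM in a group and no overlap, the 10 most abundant entries, list members by abundance, 8 hairpins toward 5p and all toward 3p, 5 totals and 5 seed families each way. Other seed families, miR-29a, miR-222 and miR-1307 were chosen after their values were seen. Members and lists were chosen with earlier results of these data known. Of the tested entries 331 matched a RefSeq mature sequence (GRCh38.p14), and gene annotation is GENCODE v29. Precursor folds were not analysed, since 75.4% of hairpins had a precursor sequence and a minimum of 80% was set. Scripts were tested on simulated data.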

Additional observations from a re-analysis of the deposited data

How the results depend on the processing

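Depth limits single entries: 3 counts are 11.8 to 20.8 CPM by total miRNA counts, and up to 26.0 CPM (R821E replicate 2) on the TMM scale. With 2 libraries a group there are few degrees of freedom. A group left with 1 library is assumed to vary like the others. Called entries were 73 to 111 without 1 library (155 with all), 149 to 167 relative to the spike-ins (184), 70 to 88 for seed families (107), 19 to 29 for arm ratios (27) and 27 to 35 for hairpin totals (39). Of 54 named entries called on the TMM scale 29 kept their call in each such fit, against 39 of 45 relative to the spike-ins. Without 1 library the difference (R821E minus R821A) was -15.8 to -12.5 percentage points for the 3p share, 4.03 to 4.75 for the 5p to 3p ratio, -7.14 to -3.28 for miRNA counts per spike-in count and 12.4 to 17.5 points for the miR-21-5p share. Of the 23 hairpins shifted toward 5p, 21 to 22 still had the 3p strand alone lower relative to the spike-ins. Without the miR-21 hairpin the 3p share differed by -18.9 points and the ratio by 1.43, since that hairpin is mostly 5p. With at least 100 counts in both arms, fewer hairpins were tested and 8 ratios were called.

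Signs turned for miR-16-5p with total counts (-0.0424). Relative to the spike-ins they turned for the totals of miR-21 (-0.00584), miR-28 (-0.0835), miR-590 (-0.15) and miR-29a (-0.74), and for the seed families AAAGUGC (-0.54), ACAUUCA (-0.39), AGCAGCA (-0.37), GUUUUGC (-0.31), ACCCGUA (-0.23), AUCUUAC (-0.0344) and AGCUUAU (-0.00440). On that scale the median of all entries was -1.02, against -0.07. The counts are the same on both scales and the library sizes alone differ, so all values lay lower by a similar step. Smaller rises therefore turned sign. Which scale lies nearer to the cells was not tested. DESeq2 called 124 entries and edgeR without a filter 118. The main tests did not pair libraries by replicate number. Deviations of same-numbered R821E and R821A libraries had a correlation of -0.162 over 250 entries, where the 15 pairs of groups ran from -0.640 to 0.563. Such values cannot show whether same-numbered libraries were handled together. With the replicate block 148 entries, 175 relative to the spike-ins, 28 arm ratios, 38 totals and 104 families were called.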
